A study of Mus musculus with 32 samples.

Results

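Livers of Nudt7-/- (KO) females were compared with livers of wild-type (WT) females, all fed the Western diet (WD). This comparison takes 8 of the 32 libraries of the series, chosen by the sex, genotype and diet in their labels, as 4 WT and 4 KO samples. The WD supplied 41% of its energy as fat and held 0.2% cholesterol, and the low-fat control diet (CD), fed to other mice of the series, supplied 10% and held no cholesterol. Mice ate their diet from 6 weeks of age and were harvested at 17 to 20 weeks, either fed, at 7:00 AM, or fasted, and the labels do not say which state each library comes from. KO mice lack exons 3 and 4 of Nudt7 in the whole body. The line descends from 1 mosaic founder made in FVB zygotes and was bred to C57BL/6J, the strain given for every library, and WT mice were littermates. The values are estimated read counts per transcript, summed by gene. Samples are taken as separate mice, as the methods describe them, and all p-values measure only the spread between these samples.

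The 8 libraries held 12085451 to 15825078 counts, and the levels of 8 hepatocyte markers such as albumin summed to 71281 to 90026 CPM (counts scaled to the library size, with TMM factors, the trimmed mean of M-values) in each. Among these 8, a library of each genotype stood apart. WT 4 held transcripts of the exocrine pancreas: its 19 acinar genes summed to 561 CPM, against 4.42, 5.56 and 6.41 in the other WT libraries and 8.27, 6.75, 7.02 and 24.3 in KO 1 to KO 4, and none of the 19 was at 0. Prss2, the gene of a trypsinogen, stood at 27.2 CPM in WT 4, at 0.476 in KO 4 and at 0.067 or less in the other 6 libraries. KO 4 held transcripts of fat: its 7 adipocyte genes summed to 64 CPM, against 6.41 to 13.5 in the other 7 libraries. In the wider series it was less unusual. Of the other 24 libraries 15 exceeded 13.5 CPM for these genes, and the highest stood at 119. Against the median of all 32 libraries WT 4 stood at 33.5 times for acinar genes and KO 4 at 4.41 times for adipocyte genes. For acinar genes 3 of the other 24 libraries also exceeded 10 times the median, and the highest stood at 7387 CPM. The limits for leaving a library out were 10 times for acinar and 3 times for adipocyte genes. Ucp1, the uncoupling protein of brown fat, stood at 20.5 CPM in KO 4 and at 0.082 or less in every other library, and Cidea, a lipid droplet protein of the same tissue, at 3.81 CPM against 0.152 or less (both genes were looked at after the values were seen). The summed acinar level did not separate the genotypes, with a difference of −0.84 in log2(CPM + 1), KO minus WT, and p = 1 (exact permutation test, two-sided, 4 against 4, smallest possible p 0.0286). Without WT 4 this difference was 0.78, and every KO library (6.75 to 24.3 CPM) lay above the remaining WT libraries (4.42 to 6.41). WT 4 and KO 4 were nearer to each other than to any library of their own group (chi-square per gene 14.6, against 27.5 to 85.4). What they share was not tested. Calls of edgeR that arose without WT 4, without KO 4 or without both are given beside the genes they concern.

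NUDT7 is a peroxisomal Nudix hydrolase of the liver that splits CoA and acyl-CoAs into 3′,5′-ADP and a phosphopantetheine part. CoA carries the acyl groups of fatty acid oxidation, lipid synthesis and bile acid conjugation, and peroxisomes hold a CoA pool of their own for shortening very long and branched chains. NUDT19, also peroxisomal, NUDT8, mitochondrial, and FITM2, of the endoplasmic reticulum, are the other mammalian enzymes known to cleave CoA species.

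The guides used to make the allele and the smaller deleted exon are shown because they place the deletion against the transcripts that were counted. The protospacer adjacent motif is in capitals.
5g: tcccaacccaacatagtggaAGG
3g: tggaattactccctaaccccAGG
Nudt7 exon 3: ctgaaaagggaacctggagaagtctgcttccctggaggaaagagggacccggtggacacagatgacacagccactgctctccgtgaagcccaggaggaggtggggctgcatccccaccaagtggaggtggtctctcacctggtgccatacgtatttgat
The guide 3g matched the minus strand at chr8:114152408-114152430 (GRCm38), inside exon 4 of the transcript ENSMUST00000073521, 394 bases past the end of the coding sequence. Exon 3, at chr8:114147895-114148053 on the plus strand, holds 159 coding bases, and exon 4, at chr8:114151654-114154739, holds 360 of the 708 coding bases. Beyond the 3g site lie 2309 bases of ENSMUST00000073521 and no base of the other 4 annotated transcripts. The guide 5g matched no annotated transcript.

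Nudt7 stood at 159, 101, 174 and 117 CPM in WT 1 to WT 4 and at 66.5, 29.6, 31 and 26.7 in KO 1 to KO 4. The groups did not overlap, and KO 1 was the highest of the KO libraries. Summed over transcripts the level was 3.58-fold lower in KO (−1.84 on the log2 scale, standard error 0.35), and edgeR did not call it (Benjamini-Hochberg adjusted p = 0.316 over all genes). Without KO 1 edgeR called it (−2.25, adjusted p = 0.00619), and DESeq2 on gene sums called it with all 8 libraries (−1.84, adjusted p = 8.26e-04). The transcripts differed in kind. In the 4 WT libraries ENSMUST00000147605 held 33.1% to 34.9% of the Nudt7 counts, ENSMUST00000066514 20.2% to 28.6% and ENSMUST00000134593 2.73% to 4.27%, and all 3 were at 0 in 4 of 4 KO libraries. The whole KO count, 376 to 991 reads, was assigned to ENSMUST00000073521 (44.4% to 48.2%) and ENSMUST00000109109 (51.8% to 55.6%), which took 34% to 42.1% together in WT. ENSMUST00000073521 is the transcript that runs on past the 3g site, and ENSMUST00000109109 opens with an exon of 1823 bases, so that both hold long stretches outside exon 3 and the coding part of exon 4. Estimated counts do not show where along a transcript the reads lay. The mean effective length of the counted Nudt7 transcripts was 967 to 1047 bases in WT and 2810 to 2828 bases in KO. With these lengths in the model DESeq2 called Nudt7 lower in KO by −3.34 on the log2 scale (standard error 0.28, adjusted p = 5.11e-29). The lengths are those of annotated transcripts that include the deleted exons. The length of RNA from the KO allele was not measured. The split between transcripts in KO and the size of this fold therefore depend on the annotation.

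**Figure D1:**
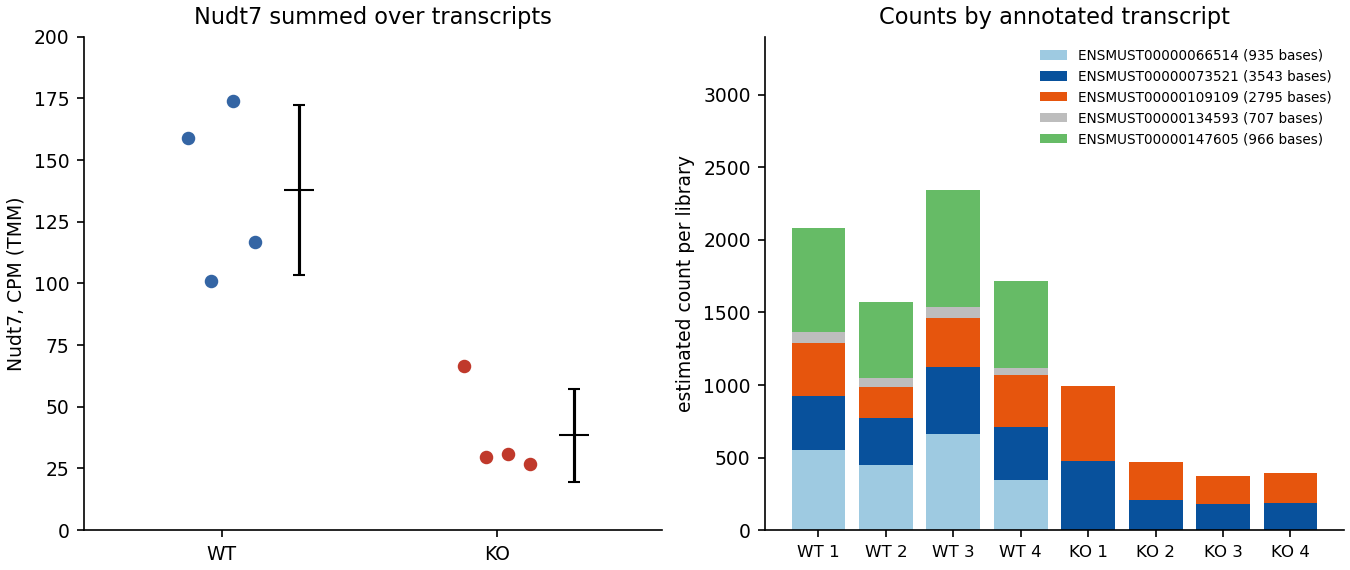
Nudt7 in the 8 libraries. Left, CPM by genotype, 1 point per library, with the mean and SD (n = 4) beside the points; right, estimated counts per library (y axis) stacked by annotated transcript. KO libraries hold counts of ENSMUST00000073521 and ENSMUST00000109109 only, 376 to 991 in all.

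Of the other CoA-cleaving genes, Nudt8 and Nudt19 lay close to the WT level, and Fitm2 was somewhat lower without a call. Nudt8 stood at 6.77, 7.87, 6.63 and 7.16 CPM in WT and 7.32, 7.39, 5.77 and 6.87 in KO (log2 fold change −0.05, standard error 0.13, edgeR adjusted p = 0.944). Nudt19 differed little (−0.11, 0.08, 0.824), with WT values of 35.3 to 38.4 against KO values of 31.4 to 37.9 CPM. Fitm2 stood at 41.9, 58.5, 45.3 and 49.4 CPM in WT and 34.6, 38.6, 42.8 and 40.8 in KO, a difference of −0.32 (0.11) with an edgeR adjusted p of 0.532. For all 3 genes the groups overlapped. Of these 3 genes and Nudt7, 2 had an unadjusted edgeR p under 0.05 (50%, against 7.65% of all genes), both lower in KO. These were Nudt7, the deleted gene, and Fitm2, so the share says little about the other genes. A miss of the threshold does not show equal levels.

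Across 12824 tested genes edgeR called 2 (0.0156%), both higher in KO: the pseudogene Gm45910 and Ces1b, a carboxylesterase gene of the family whose members hydrolyse esters of lipids and drugs. Ces1b stood at 59.7, 63.9, 78 and 87.2 CPM in WT and at 396, 730.2, 375 and 558 in KO, so that the lowest KO library lay above the highest WT library. It rose 7.13-fold (log2 fold change 2.83, standard error 0.24, edgeR adjusted p = 0.00418). Gm45910 stood at 0.076, 0, 0.149 and 0.136 CPM in WT and at 4.16, 8.97, 4.37 and 6.47 in KO. Its groups did not overlap either, and its log2 fold change was 5.96 (0.47, edgeR adjusted p = 5.73e-04). In WT its count was near 0, so the size of its fold depends on the handling of low counts. In KO the order of libraries was nearly the same for both genes, with KO 2 highest and KO 4 next.

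The sequences below tell these genes from their neighbours. Each is a stretch of 90 bases that shares no run of 31 bases with an annotated transcript of another Ces1 gene.
Ces1b: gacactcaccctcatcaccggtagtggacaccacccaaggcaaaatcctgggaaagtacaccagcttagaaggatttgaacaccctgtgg
Gm45910: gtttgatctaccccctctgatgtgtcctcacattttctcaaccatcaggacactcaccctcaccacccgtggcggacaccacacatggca
The Ces1b stretch lies in exon 2 of ENSMUST00000109582 at chr8:93079470-93079559, minus strand, and that of Gm45910 in exon 1 of ENSMUST00000212493 at chr8:93154027-93154116, minus strand (GRCm38). Of the runs of 31 bases in Ces1b, 23.8% also occur in another Ces1 gene, mostly Ces1c (19.8%), and of those in Gm45910 21.3% do, again mostly in Ces1c (14.8%). Reads of the shared parts can be split between these genes, and the values of Gm45910 in particular are uncertain for that reason. The 5 other Ces1 genes tested overlapped between the genotypes. Ces1c, the most abundant, stood at 3064, 3502, 3162 and 3907 CPM in WT and 3588, 3272, 3492 and 2949 in KO (−0.04 on the log2 scale, standard error 0.11). Ces1d (−0.08), Ces1e (0.04), Ces1f (−0.00) and Ces1g (−0.04) had edgeR adjusted p of 0.922 to 1.

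**Figure D2:**
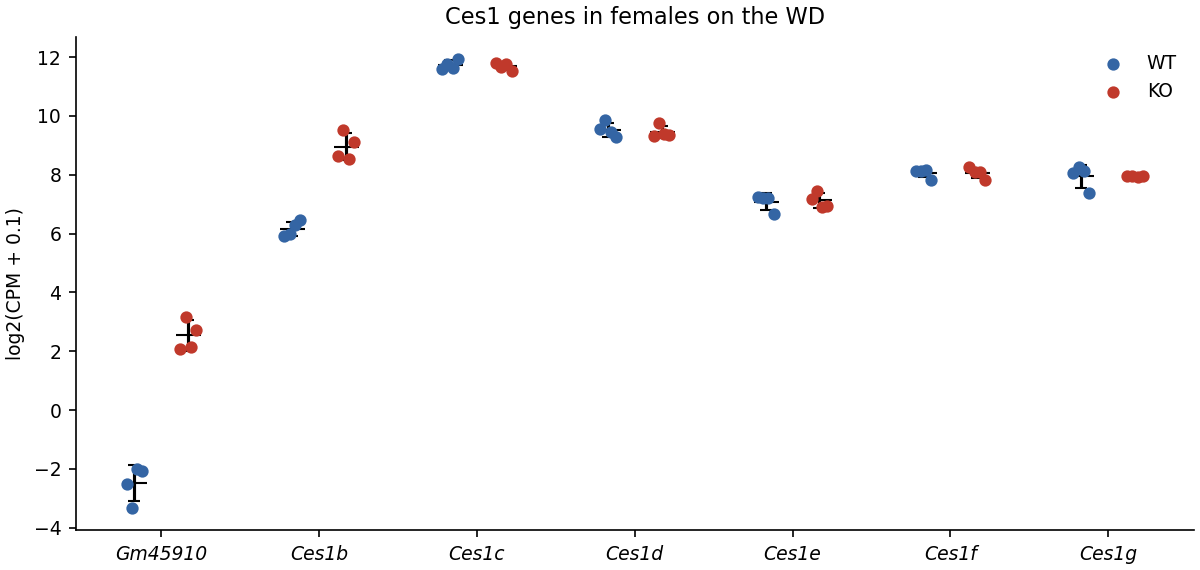
Ces1 genes and Gm45910, as log2(CPM + 0.1) on the y axis, 1 point per library, with mean and SD (n = 4). Ces1b (375 to 730.2 CPM in KO) and Gm45910 (4.16 to 8.97 CPM in KO) separate the genotypes, and the other 5 genes overlap.

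Nudt7 lies on chromosome 8 at 114133557 to 114154739, and the called genes lie on the same chromosome, at −21.08 (Ces1b) and −20.99 Mb (Gm45910) from its start. Of 314 tested genes within 30 Mb of Nudt7, itself left out, 25 had an unadjusted p under 0.05 (7.96%), against 7.65% on other chromosomes and 7.65% of all genes tested (981). Log2 fold changes past 1 in either direction were seen for 5 of the 314 (1.59%), against 0.905% on other chromosomes. Gm3272, a predicted gene at −21.42 Mb, stood at 0.609, 0.516, 1.12 and 0.136 CPM in WT and 1.41, 3.03, 2.64 and 2.86 in KO, without overlap (log2 fold change 2.07, standard error 0.43, edgeR adjusted p = 0.282, DESeq2 with length offsets 0.0161). Ciapin1, a gene of iron-sulfur cluster assembly at −19.31 Mb, stood at 16.8, 15.9, 16.4 and 20.7 CPM in WT and 24.2, 24.7, 25.1 and 29.3 in KO (0.57, 0.11, edgeR adjusted p = 0.217). Every KO value of Ciapin1 lay above every WT value, and edgeR called it without WT 4 (adjusted p = 0.0199). It was also higher in KO males on the WD, where edgeR called it (log2 fold change 0.80, standard error 0.10, adjusted p = 0.0471). The allele was made in FVB zygotes, and the deletion and any FVB sequence still linked to it cannot be told apart in these libraries.

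**Figure D3:**
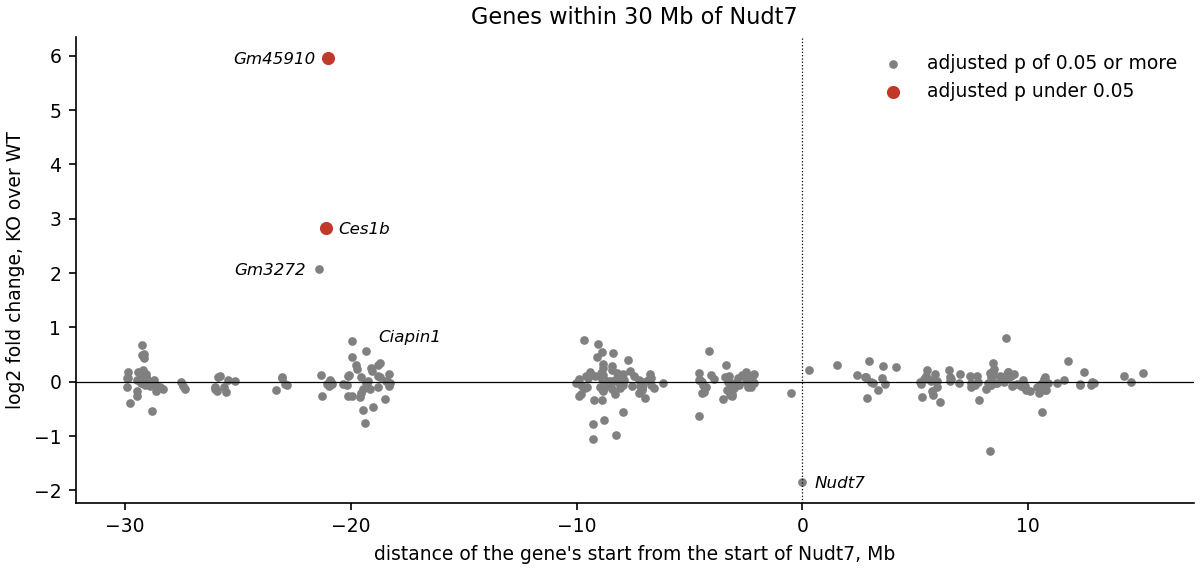
Log2 fold change of KO over WT (y axis) against the distance of each gene's start from that of Nudt7 in Mb (x axis), for Nudt7 and the 314 other genes tested within 30 Mb. The called genes, in red, are Gm45910 (5.96) and Ces1b (2.83), near −21 Mb, and most other genes lie close to 0.

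Other calls depended on the tool and on WT 4 and KO 4. DESeq2 with length offsets called 58 of the 12824 genes (0.452%), 33 higher and 25 lower, among them both edgeR calls. edgeR called 18 genes without WT 4 (0.141%), 10 without KO 4 (0.0786%) and 82 without both (0.65%). Where the library left out lay nearest the other genotype, the choice favoured the call, which is then no separate support. Of the 12824 genes, 568 (4.43%) did not overlap between the groups, 294 of them higher (2.29%) and 274 lower in KO (2.14%).

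The genes of the circadian clock were the list with the most members at an unadjusted p under 0.05. In this clock ARNTL, paired with CLOCK or NPAS2, drives the Per, Cry and Nr1d genes and the output genes Dbp and Tef through E-box sequences, and the PER, CRY and NR1D proteins repress it in return. The liver clock also follows feeding time. Of 17 tested genes of the list, 11 had such a p (64.7%, against 7.65% of all genes): 7 higher and 4 lower in KO, where 3.93% and 3.72% of all genes were, with a median log2 fold change of 0.02 over the list and 0.00 over all genes. edgeR called none of them with all 8 libraries, and DESeq2 with length offsets called Nr1d1, Nr1d2 and Dbp.

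Dbp, a transcription factor with a wide daily swing in liver, stood at 4.41, 1.55, 6.18 and 1.16 CPM in WT and at 37, 29.6, 19.9 and 5.24 in KO. KO 1 to KO 3 lay above all WT libraries and KO 4 lay among them (log2 fold change 2.81, standard error 0.76, edgeR adjusted p = 0.487, DESeq2 with length offsets 0.0351). Nr1d1, the repressor REV-ERBα, stood at 54.3, 31.2, 55.8 and 27 CPM in WT and 103, 100.5, 62.2 and 71.6 in KO, without overlap (1.01, 0.29, edgeR adjusted p = 0.487, DESeq2 0.0229). Nr1d2, its paralog REV-ERBβ, stood at 56.5, 42.5, 54.7 and 53.6 CPM in WT and 111, 86.8, 81.9 and 59.1 in KO, again without overlap (0.71, 0.17, edgeR 0.39, DESeq2 0.0161). Tef, a relative of Dbp, stood at 45.4, 35.4, 55.2 and 46.5 CPM in WT and 109, 88.7, 84.7 and 44 in KO. The period genes Per1 (3.87 to 7.5 CPM in WT, 17.7, 15.5, 28.6 and 4.29 in KO) and Per3 (2.39 to 8.79 in WT, 25.2, 19.4, 18.7 and 3.95 in KO) likewise had KO 1 to KO 3 above all WT libraries and KO 4 inside the WT range. Cry2, a repressor, stood at 20.7 to 31.9 CPM in WT and 30.5 to 39.3 in KO.

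The activators ran the other way. Arntl stood at 29.5 to 36.4 CPM in WT and at 16, 19.8, 16.6 and 31 in KO (log2 fold change −0.62, standard error 0.20, edgeR adjusted p = 0.503). Npas2 stood at 22.6, 17.3, 18.6 and 8.79 CPM in WT and at 5.37, 7.83, 6.76 and 13.9 in KO, and Clock at 70.2 to 88.5 in WT and 53.9 to 79.5 in KO. For Cry1, a repressor, the values were 14.6, 17.3, 16.8 and 18.8 CPM in WT and 9.4, 8.53, 9.15 and 15.7 in KO. In these 4 genes KO 1 to KO 3 lay below all WT libraries and KO 4 was the highest of the KO libraries.

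Without KO 4, the library with adipocyte transcripts, 13 of the 17 clock genes had an unadjusted p under 0.05 (76.5%, against 9.8% of all genes), and edgeR called Arntl (log2 fold change −0.87, adjusted p = 0.0403), Cry1 (−0.90, 0.0403) and Tef (1.05, 0.041). Without WT 4 as well it called 5, adding Npas2 (−1.55, edgeR adjusted p = 0.00263) and Nr1d2 (0.86, 0.0336). KO 4 was the KO library nearest WT in most of these genes. Leaving it out therefore favoured these calls, and they are no separate support. The part of the adipocyte transcripts in this pattern was not tested. The labels give no hour or feeding state for single libraries. Promoters of Per1, Tef and Cry1 are printed because they hold the canonical E-box, CACGTG, in the 250 bases before an annotated start (RefSeq, GRCm38.p6, on the gene's strand, the motif in capitals).
Per1: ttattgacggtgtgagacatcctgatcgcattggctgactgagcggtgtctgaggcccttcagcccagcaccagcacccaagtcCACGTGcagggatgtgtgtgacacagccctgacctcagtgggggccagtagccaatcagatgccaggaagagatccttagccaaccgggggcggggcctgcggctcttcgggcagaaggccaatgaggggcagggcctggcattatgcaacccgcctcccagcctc
Tef, first start: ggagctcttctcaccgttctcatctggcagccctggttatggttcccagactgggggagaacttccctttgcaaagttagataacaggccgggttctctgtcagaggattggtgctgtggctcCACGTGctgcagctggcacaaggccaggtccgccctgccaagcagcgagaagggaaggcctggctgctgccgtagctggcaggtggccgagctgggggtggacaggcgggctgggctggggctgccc
Tef, second start: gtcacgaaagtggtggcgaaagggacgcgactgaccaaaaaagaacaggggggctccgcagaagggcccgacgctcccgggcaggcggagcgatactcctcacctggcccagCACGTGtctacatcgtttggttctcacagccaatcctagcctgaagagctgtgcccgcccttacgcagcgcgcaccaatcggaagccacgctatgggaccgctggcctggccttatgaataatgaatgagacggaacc
Cry1: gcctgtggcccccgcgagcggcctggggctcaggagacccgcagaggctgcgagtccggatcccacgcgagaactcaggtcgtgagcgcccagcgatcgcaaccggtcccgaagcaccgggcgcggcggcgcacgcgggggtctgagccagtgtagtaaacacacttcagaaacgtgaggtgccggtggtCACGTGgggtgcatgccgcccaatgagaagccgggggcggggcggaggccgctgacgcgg
These windows lie at chr11:69098699-69098948 (plus strand) for Per1, at chr15:81802423-81802672 and chr15:81811164-81811413 (plus strand) for Tef and at chr10:85185055-85185304 (minus strand) for Cry1. CACGTG reads alike on both strands. From 250 bases before to 50 after a start, it occurred for 5 of 16 clock genes with a promoter in the table (31.2%) and for 8.09% of 27025 genes. In this window it did not occur for Dbp, Nr1d1 or Nr1d2, the clock genes that DESeq2 with length offsets called. It was also absent there for Per3, Cry2, Arntl, Npas2 and Clock. A match describes letters and shows no binding.

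**Figure D4:**
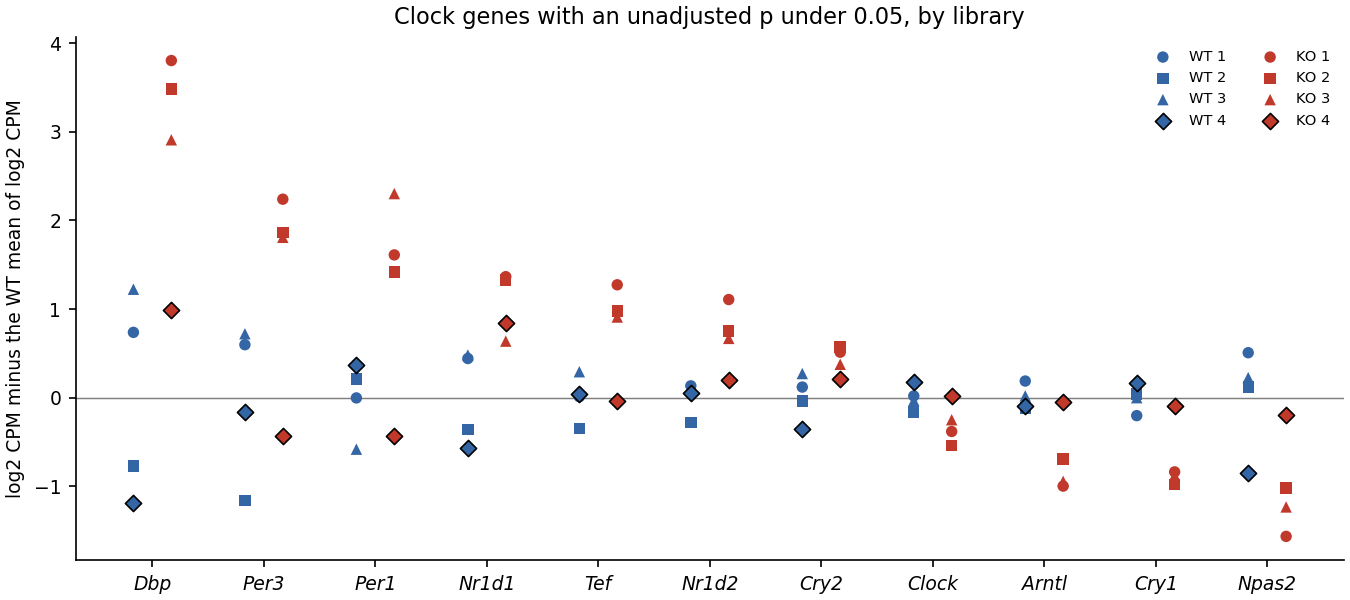
The 11 clock genes with an unadjusted p under 0.05, as log2 CPM of each library minus the WT mean of log2 CPM (y axis). Blue points are WT and red points KO, the marker shape gives the replicate, and WT 4 and KO 4 are outlined diamonds. KO 1, KO 2 and KO 3 lie apart from WT in most genes, and KO 4 lies among or near the WT libraries in most.

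On the CD, in other mice, 2 of the 17 clock genes had an unadjusted p under 0.05 (11.8%, against 6.87% of all genes there). Dbp ran from 0.892 to 4.01 CPM in WT and from 0.846 to 1.59 in KO females there (log2 fold change −0.47, standard error 0.50, edgeR adjusted p = 0.898), and Arntl, Cry1, Npas2, Nr1d1, Nr1d2, Per1, Per3 and Tef had edgeR adjusted p of 0.78 to 0.996. The KO effect on Dbp was 3.30 higher on the WD than on the CD on the log2 scale (standard error 1.38), a difference that edgeR did not call in the model of all 32 libraries (adjusted p = 1, unadjusted p = 0.0252). In males on the WD Dbp ran from 1.71 to 41.2 CPM in WT and from 8.06 to 51.3 in KO, a spread wider within each genotype than between them.

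Genes of glucose and amino acid use are given next. Ppp1r3b, which brings protein phosphatase 1 to glycogen and so favours its synthesis, stood at 696, 432, 711 and 460.2 CPM in WT and 179.8, 247, 338 and 188 in KO, without overlap. It was lower by 2.41-fold, called by DESeq2 with length offsets (adjusted p = 9.23e-05) and not by edgeR (0.282). G6pc, which releases glucose from glucose-6-phosphate, stood at 252 to 374 CPM in WT and 322 to 571 in KO (0.45, standard error 0.18, edgeR adjusted p = 0.623). Over the insulin and glucose list 4 of 17 tested genes had an unadjusted p under 0.05 (23.5%, against 7.65% of all genes), 3 of them higher (3.93% of all genes).

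Sds, serine dehydratase, which feeds serine into pyruvate, stood at 85.8, 85.6, 67.3 and 125 CPM in WT and 146, 176, 156 and 133 in KO, without overlap. It rose by DESeq2 with length offsets (log2 fold change 0.85, standard error 0.17, adjusted p = 0.00125) and by edgeR once WT 4 was left out (0.94, adjusted p = 0.00965). Hal, histidine ammonia lyase, stood at 356 to 417 CPM in WT and 493 to 674 in KO (DESeq2 with length offsets 0.58, standard error 0.14, adjusted p = 0.015). Slc2a5, the fructose transporter GLUT5, stood at 1.9, 2.32, 3.2 and 2.93 CPM in WT and 8.12, 6.32, 7.17 and 4.02 in KO. It was 2.47-fold higher, called by DESeq2 with length offsets (adjusted p = 0.00987) and by edgeR without KO 4 (0.0403). Errfi1, a feedback inhibitor of the EGF receptor, stood at 272, 517, 349 and 537 CPM in WT and 1140, 649, 1155 and 613 in KO, where every KO library was above every WT library (DESeq2 with length offsets 1.08, standard error 0.24, adjusted p = 0.00714).

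Targets of PPARα, the nuclear receptor that fatty acids activate, had a median below 0. Lists of CoA and peroxisomal metabolism had medians nearer 0 (−0.12 to −0.03). Among all 12824 genes 6395 were below 0. Of 16 tested PPARα targets outside the oxidation lists, 12 were below 0 and 5 had an unadjusted p under 0.05 (31.2%, against 7.65% of all genes), 4 of them lower (3.72% of all genes), with a median log2 fold change of −0.21. The list of omega-oxidation and dicarboxylic acids did not share this direction. Of its 17 tested genes 9 were above 0 and 8 below, with a median of 0.00. There 3 had such a p (17.6%), 2 of them higher. DESeq2 with length offsets called Cyp4a32, of the Cyp4a family, higher in KO (0.86, standard error 0.23, adjusted p = 0.0498). Vnn1, the pantetheinase that recycles pantothenate from broken-down CoA, stood at 87.8, 149.6, 81.6 and 78.6 CPM in WT and 64.6, 48.9, 51.9 and 59.1 in KO, without overlap. Vnn1 fell by DESeq2 with length offsets (−0.82, standard error 0.22, adjusted p = 0.0351), not by edgeR (0.414). Fgf21, a hormone made by the liver, stood at 3.35, 2.19, 2.83 and 1.64 CPM in WT and 0.806, 0.947, 0.247 and 1.16 in KO, also apart (DESeq2 with length offsets −1.66, 0.43, adjusted p = 0.0351). edgeR called it without WT 4 and KO 4 (adjusted p = 0.0412). Cd36, a fatty acid transporter, stood at 267, 287, 236 and 110.3 CPM in WT and 157, 123, 132 and 119.9 in KO. WT 4 lay below the KO libraries and the other WT libraries above them, and without WT 4 edgeR called Cd36 (−0.98, adjusted p = 0.00675). Ppard, a related receptor, stood at 38, 27.3, 32.6 and 11.4 CPM in WT and 8.86, 11.9, 9.65 and 14.1 in KO, again with WT 4 apart from the other WT libraries. It fell by DESeq2 with length offsets (−1.30, adjusted p = 0.0179) and by edgeR without WT 4 (−1.55, 0.00699). For Cd36 and Ppard, leaving WT 4 out favoured the edgeR calls, and these are no separate support.

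Crat, carnitine acetyltransferase of peroxisomes and mitochondria, stood at 91.8, 99.5, 87.6 and 69.4 CPM in WT and 56.3, 64.8, 46.7 and 66.4 in KO, without overlap (DESeq2 with length offsets −0.61, standard error 0.16, adjusted p = 0.0491; edgeR 0.316, and 0.0201 without WT 4 and KO 4). Pex11a, a peroxisome division gene, stood at 53.4 to 69.4 CPM in WT and 44.2 to 51.3 in KO, and edgeR called it with WT 4 and KO 4 left out (−0.52, adjusted p = 0.0335). Of the 24 tested genes of peroxisomal oxidation and transport 3 had an unadjusted p under 0.05 (12.5%, against 7.65% of all genes), with a median of −0.08. None of the 20 mitochondrial oxidation genes had one (median −0.09). Of the 14 genes of CoA synthesis and pantetheine recycling 2 did (14.3%, and 5, or 35.7%, without WT 4 and KO 4, against 12.2% of all genes), with a median of −0.03, and of the 13 acyl-CoA thioesterases none did (median −0.12).

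Fat and cholesterol synthesis varied more among WT livers than between genotypes. Fasn, fatty acid synthase, stood at 3525, 548, 3196 and 360.1 CPM in WT and 898, 1142, 836 and 408 in KO, so that WT 1 and WT 3 were above and WT 2 and WT 4 among or below the KO livers. The WT range spanned 9.79-fold (log2 fold change −1.22, standard error 0.83, edgeR adjusted p = 0.804). Elovl6, which elongates palmitate, and Acaca, acetyl-CoA carboxylase, also had WT 1 and WT 3 far above WT 2 and WT 4, at 1142, 198, 1202 and 117 CPM and at 780.2, 161, 676 and 162 in WT. Of 13 tested fatty acid synthesis genes 11 were below 0, with a median of −0.51, and none had an unadjusted p under 0.05. The 20 cholesterol synthesis genes were all below 0 with a median of −0.61, and again none had such a p. Their summed level was 4786, 1948, 3979 and 1529 CPM in WT and 2261, 3064, 2208 and 1383 in KO. Hmgcs1, of the first steps, stood at 632, 281, 462 and 164 CPM in WT and 217, 326, 193 and 143 in KO (−0.81, 0.46, edgeR adjusted p = 0.748). Insig1, a sterol sensor partner, had a difference of −0.39 with an edgeR adjusted p of 0.923.

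**Figure D5:**
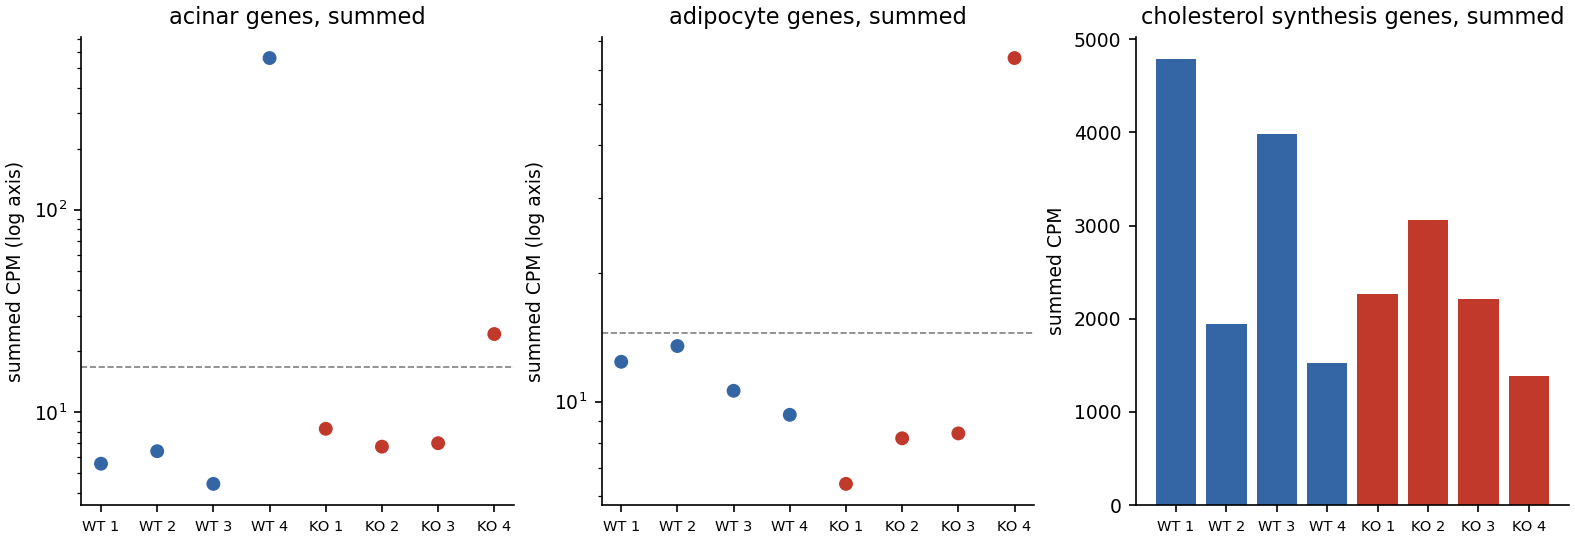
Summed CPM of the acinar genes and the adipocyte genes (log y axes, 1 point per library; the dashed line is the median of all 32 libraries) and of the 20 cholesterol synthesis genes (bars, linear y axis), with WT in blue and KO in red. WT 4 stands at 561 CPM for acinar genes, KO 4 at 64 for adipocyte genes, and the cholesterol sum runs from 1529 to 4786 CPM within WT.

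Of 12 tested LXR targets and sterol efflux genes 2 had an unadjusted p under 0.05 (16.7%, against 7.65% of all genes), both higher. The count was 5 without WT 4 (41.7%, against 10.7%), 4 without KO 4 (33.3%, against 9.8%) and 7 without both (58.3%, against 12.2%), and edgeR called none of the 12 in these fits. Npc1, which moves cholesterol out of lysosomes, stood at 119 to 136 CPM in WT and 141 to 161 in KO, without overlap (log2 fold change 0.28, standard error 0.08, edgeR adjusted p = 0.417). Abcg5 and Abcg8, whose products pump sterols into bile, had log2 fold changes of 0.33 and 0.27 (edgeR adjusted p = 0.875 and 0.88), and Abcg5 was highest in WT 4 (259.9 CPM) and KO 4 (256). Cyp7a1, the rate-limiting enzyme of bile acid synthesis, stood at 266, 383, 374 and 229 CPM in WT and 188, 142, 492 and 438 in KO, a spread that covered the difference (0.01, 0.44, edgeR adjusted p = 0.999). Cyp8b1, which sets the share of cholic acid, had −0.26 (0.20, 0.817 by edgeR). Of 19 tested genes of bile acid synthesis 1 had an unadjusted p under 0.05 (5.26%), and of 17 of transport and FXR signaling 1 did: Nr0b2, the repressor SHP, at 24, 21.3, 27.5 and 17.7 CPM in WT and 15.3, 17.6, 11 and 15.7 in KO, without overlap (−0.60, 0.16, edgeR adjusted p = 0.414). Among lipases outside the Ces family, Pnpla2, adipose triglyceride lipase, stood at 28.2 to 34.9 CPM in WT and 37.9 to 44.4 in KO (0.36, 0.09, edgeR adjusted p = 0.364). Mgll, monoglyceride lipase, stood at 249 to 287 CPM in WT and 194 to 257 in KO (−0.24, 0.10, 0.634 by edgeR).

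Further genes separated the genotypes and were not among the 2 edgeR calls. In other edgeR fits of the 8 libraries, Wsb1 (adjusted p = 0.0402) and Inca1 (0.0415) were called without a count filter. Wsb1 was also called with the replicate number as a block (0.0379). Wsb1, a ubiquitin ligase subunit, stood at 33.9, 45.5, 28.4 and 33.9 CPM in WT and 60.1, 72.8, 70.0 and 58.4 in KO (DESeq2 with length offsets 0.85, standard error 0.17, adjusted p = 0.00105; edgeR 0.162, and 0.0069 without WT 2). Inca1, an inhibitor of cyclin-dependent kinases, stood at 15.2 to 17.3 CPM in WT and 20.9 to 24.9 in KO (DESeq2 adjusted p = 0.00826, and edgeR 0.0486 without KO 4). Inmt, an N-methyltransferase of small amines, stood at 289.9, 369, 297 and 416 CPM in WT and 573, 476, 543 and 485 in KO, 1.51-fold higher without overlap (DESeq2 with length offsets adjusted p = 0.0118; edgeR 0.282, and 0.0473 without WT 4). Trib3, a stress-induced pseudokinase, stood at 1.34 to 2.59 CPM in WT and 3.79 to 7.07 in KO (1.27, 0.24, edgeR adjusted p = 0.241). Lower in every KO library were Tfrc, the transferrin receptor (19.8 to 33 against 11.3 to 14 CPM, edgeR adjusted p = 0.217), Npnt, a matrix protein (3.05 to 4.26 against 1.54 to 2.15, 0.217), and Axin2, a target and brake of Wnt signaling (17.8 to 19.6 against 9.73 to 14.4, 0.282). Npnt fell by DESeq2 with length offsets (−1.01, standard error 0.26, adjusted p = 0.0351). Of genes called by edgeR only once WT 4 was left out, Adgrf1, an adhesion receptor, stood at 1.14, 1.55, 1.64 and 4.02 CPM in WT and 4.22 to 4.83 in KO, and Ly6d, a surface protein, at 11.8, 8.06, 8.49 and 1.02 in WT and 2.15 to 4.15 in KO (adjusted p = 0.00965 and 0.0105 there). WT 4 was the WT library nearest KO for Adgrf1 and lay beyond KO for Ly6d, so that leaving it out favoured both calls.

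Genes with a known sex difference in mouse liver had medians of opposite sign. Of 19 tested female-predominant genes 14 were below 0 and 5 had an unadjusted p under 0.05 (26.3%, against 7.65% of all genes), 4 of them lower (3.72%), with a median log2 fold change of −0.30. Without KO 4 it was 2 of the 19, against 9.8% of all genes. Cyp3a16 and Cyp3a41b, cytochrome P450 genes of female liver that share much of their sequence, so that reads may be split between them, stood at 419, 506, 411 and 175 CPM and 513, 497, 442 and 169 in WT, and at 165, 252, 219 and 98 and 177, 138, 271 and 83.4 in KO. WT 4 lay within the KO range for both (−1.04 and −1.28, edgeR adjusted p = 0.628 and 0.617). edgeR called Cyp3a16 without WT 4 and KO 4 (−1.07, adjusted p = 0.0157) and with the replicate number as a block (−1.02, 0.0202). Of 17 male-predominant genes tested, Nudt7 among them, 15 were above 0, with a median of 0.38. Of the 17, 2 had an unadjusted p under 0.05 (11.8%, against 7.65% of all genes), 1 higher and 1, the deleted Nudt7, lower in KO. Without WT 4, 7 of 16 did (43.8%, against 10.7%, median 0.67), and without WT 4 and KO 4, 6 of 16 (37.5%, against 12.2%). Without KO 4 alone 2 did (12.5%, against 9.8%, median 0.21). The deleted Nudt7 stayed in the list for these counts. Cyp2d9, of male liver, stood at 8.14, 8.58, 14.9 and 13 CPM in WT and 15.9, 16.2, 16.5 and 22 in KO (0.66, 0.20, edgeR adjusted p = 0.458), all far below the 783 to 997 CPM of WT males on the WD. The summed male-predominant level was highest in WT 4 (3373 CPM) and KO 4 (3375), against 1127 to 2684 in the other 6 libraries.

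Markers of other liver cells gave few differences. None of the 10 Kupffer cell, 7 endothelial, 10 stellate cell and 6 cholangiocyte genes tested had an unadjusted p under 0.05. Of 5 B cell markers 3 did, among them Cd79a (0.447 to 0.613 CPM in WT, 0.885 to 1.26 in KO) and Cd79b (0.457 to 0.903 and 1.07 to 1.96), both at about 1 CPM, with edgeR adjusted p of 0.455 and 0.417. In bulk liver more cells of a type and more RNA per cell cannot be told apart. Xenobiotic (12.5% of 24 genes), interferon (none of 17) and acute phase genes (9.09% of 22) were near the 7.65% of all genes with such a p.

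The difference of the KO effect between diets and between sexes was tested in all 32 libraries. In females on the CD, with no library in common, edgeR called 4 of 12753 genes (0.0314%). Ces1b and Gm45910 were again higher in KO, with log2 fold changes of 2.98 (standard error 0.25, adjusted p = 0.00102) and 4.98 (0.39, 0.00101). Ces1b ran from 67 to 96.8 CPM in WT and from 342 to 739.9 in KO females on the CD. No gene of 13539 passed the test of the difference between diets by edgeR (0%, where 581, or 4.29%, had an unadjusted p under 0.05, and DESeq2 called 3 with length offsets, 0.0222%, and 5 on gene sums, 0.0369%). For Ces1b the difference, WD minus CD, was −0.15 (0.69, edgeR adjusted p = 1).

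In males on the WD edgeR called 2 of 12319 genes (0.0162%), and Ces1b ran from 34.7 to 47 CPM in WT and from 26.2 to 163 in KO (log2 fold change 1.06, standard error 0.58, edgeR adjusted p = 0.581). Its KO effect was 1.80 larger in females than in males (0.70), which edgeR did not call (adjusted p = 0.516). Between the sexes 2 of 13539 genes passed (0.0148%), and both calls were lost when WT males WD 3 or 4, WT females WD 3 or KO females WD 2 or 3 was left out. Rassf3, of the RAS association domain family, stood at 48 to 53.8 CPM in WT and 48 to 55.6 in KO females, and at 87.7 to 114 in WT and 55.5 to 63.5 in KO males, a difference of effects of 0.82 (standard error 0.13, edgeR adjusted p = 0.0127). Clec2d, a lectin-like ligand of natural killer receptors, stood at 127, 136, 131 and 131 CPM in WT and 179, 183, 171 and 132 in KO females, and at 125 to 155 in WT and 78.2 to 91.5 in KO males (1.08, 0.20, edgeR adjusted p = 0.037). KO 4 was the only KO female within the WT range. Apoa4, an apolipoprotein of fat-fed liver, had 932, 617, 907 and 769 CPM in WT and 520.4, 489.7, 501 and 721 in KO females, against 379 to 695 in WT and 779.6 to 2884 in KO males, and its difference of −2.22 (0.42) missed the threshold (edgeR adjusted p = 0.0523).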

How the data were processed

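Liver mRNA of 32 mice was sequenced by the authors as 50 bp paired-end reads and quantified with Salmon 1.3.0. The deposited files hold the authors' estimated counts, TPM and effective lengths of 117135 transcripts of GRCm38. The estimated counts were summed by gene with GENCODE vM21 (115973 transcripts found), rounded and scaled to CPM. The deposited TPM were not used, and effective lengths served as length offsets.

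Tests were run on genes that reached 10 counts in 4 or more of the 8 libraries, by the quasi-likelihood F test of edgeR 4.0.16 (TMM) in R 4.3.3. The Benjamini-Hochberg adjustment covered all genes tested, with 0.05 as the threshold. DESeq2 1.42.0, the tool of the authors (their version 1.28.1), was an alternative. Differences between effects were contrasts of a model of all 32 libraries, with the same filter. Level ranges of the CD and male groups, and the acinar and adipocyte sums, used scaling factors of all 32 libraries. Exact tests used SciPy 1.17.1, and figures matplotlib 3.10.9. The procedure was tested on simulated data.

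Genes were named by rule: the CoA diphosphohydrolases, calls of edgeR and DESeq2, the genes with the smallest p among those apart, up to 3 per list, those the study names for female liver, the Ces1 genes and the top genes of the diet and sex differences. Cd36, Tef, Per1, Per3, Arntl, Npas2 and Clock were added after their values were seen. Some genes that the rule names are not reported here. The comparison, the lists and the rule were chosen with earlier results of these data known. The fits without the library with adipocyte transcripts were chosen after seeing the data. Pairs of the 8 libraries had a chi-square per gene of 10.9 to 85.4, above counting noise, so that none was a copy. Depth limits low genes most, and counts near 0 carry no fold beyond the fitted value.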

Additional observations from a re-analysis of the deposited data

Results flagged for a closer look

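A library was marked where its gap to the nearest of its group exceeded the 95% limit of Dixon's test for 4 samples. Of 136 groups tested 14 were marked, where chance marks about 1 in 20. KO 4 held 6 of the marks and WT 4 3. In KO 4 these were Ciapin1 (29.3 CPM, others 24.2 to 25.1), Cry1 (15.7, others 8.53 to 9.4), Cyp2d9 (22, others 15.9 to 16.5) and Apoa4 (721, others 489.7 to 520.4), and the summed acinar (24.3) and adipocyte (64) levels, all high. In WT 4 they were Ces1e (101 CPM, others 147 to 152) and Ces1f (228, others 280.4 to 285), both low, and the summed acinar level (561). Nudt7 was high in KO 1 (66.5 CPM, others 26.7 to 31) and Ces1d in KO 2 (862, others 646 to 669). Vnn1 was high in WT 2 (149.6 CPM, others 78.6 to 87.8), Tfrc in WT 1 (33, others 19.8 to 21.5) and Inca1 in WT 3 (17.3, others 15.2 to 15.5). Genes of KO 4 and WT 4 share a library, so their marks are not independent.

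The KO effect on the WD differed between females and males for Rassf3 (0.82 on the log2 scale, females minus males, edgeR adjusted p = 0.0127) and Clec2d (1.08, 0.037). Neither passed when WT males WD 3 or 4, WT females WD 3 or KO females WD 2 or 3 was left out.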

How the results depend on the processing

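The count of 2 genes in females on the WD was 62 by DESeq2 on gene sums, 58 with length offsets, 7 without a filter, 4 with the replicate block and 0 in the model of all 32 libraries. There Gm45910 and Ces1b missed the threshold (adjusted p = 0.0782 each). Without the acinar library, WT 4, edgeR called 18 genes and DESeq2 with length offsets 157, and without WT 4 and KO 4 they called 82 and 182. Leaving out each library gave 1 to 18, with 4 without WT 2, 1 without KO 2 and 10 without KO 4. Gm45910 was not tested once a KO library was left out, since fewer than 4 libraries then held 10 counts. Ces1b was called in each of these fits but that of all 32 libraries. The replicate numbers did not pair the samples as a whole: same-numbered samples had correlations of 0.02 to 0.37 in their deviations, 2 of 4 over 0.1. Samples did not all correlate best with their own number. The highest correlation, 0.37, was that of WT 4 with KO 4. For females on the CD the count of 4 was 26 and 19 by DESeq2 (sums, length offsets), 36 by the latter and 0 by edgeR without the acinar libraries, 12 in the model of all 32 and 1 to 5 over left-out libraries, with 2 without WT CD 1, 2 or 3 or KO CD 4 and 1 without KO CD 1, 2 or 3. For the diets DESeq2 gave 5 and 3, and left-out libraries 0. For the sexes the count of 2 was 4 with RLE factors, 22 and 25 by DESeq2, 1 by edgeR with length offsets, 14 without the acinar libraries and 0 to 15 over left-out libraries. It was 0 without WT males WD 3 or 4, WT females WD 3 or KO females WD 2 or 3, 1 without KO males WD 1, WT females WD 1 or 2 or KO females WD 1, 15 and 6 without KO males WD 2 and 3, and 11 without WT females WD 4. The acinar difference ran from −1.45 to 0.78, the latter without WT 4.

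Log2 fold changes turned sign for 10 genes, none called. Cyp7a1 went to −0.07 with length offsets (both tools), −0.14 with the replicate block, −0.06 without WT 1, −0.11 without WT 4, −0.29 without KO 3, −0.19 without KO 4 (−0.29 to 0.25 over left-out libraries) and −0.32 without both WT 4 and KO 4, and with length offsets in DESeq2 to −0.21 and −0.43 without WT 4 and without both. Ces1c went to 0.04 without WT 4, 0.02 without KO 4 and 0.09 or 0.10 without both, Ces1d to 0.04 and Ces1g to 0.06 without WT 2 (0.01 without WT 3). Ces1e went to −0.08 without WT 4 or KO 2, −0.05 by DESeq2 and −0.03 without both, and Ces1f to 0.05 and 0.04 with length offsets, to 0.02, 0.03 and 0.07 without single libraries and to 0.00 elsewhere. Others were Insig1 (0.11 without WT 1, −0.75 without KO 2), Nudt8 (0.02 without KO 3, −0.09 without WT 3), Nudt19 (0.03, DESeq2 without both) and Rassf3 (−0.03 without WT 3, −0.02 without KO 2 or KO 3). The cause was not tested. In all, 1122 of 1308 values of the 66 named genes kept their direction and side of the threshold, 144 moved past it and 2 lost it. Depth limits the B cell markers, Fgf21, Gm3272 and Gm45910, at a few CPM or less.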
